A study of Mus musculus with 8 samples.

Results

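The genes described here are 10 that are commonly grouped as p53 targets and growth arrest genes: Cdkn1a, Mdm2, Ccng1, Phlda3, Gadd45a, Gadd45b, Gadd45g, Btg1, Btg2 and Plk2. They are a fixed set of names, and 9 of the 10 were measured by a transcript cluster, a set of probes read as 1 transcript, annotated with that gene alone, out of 22180 genes measured in this way. Each of the 9 had 1 such cluster. Gadd45a shares its cluster with another annotated gene and is not analysed here. RNA came from the liver of male C57BL/6J mice, in 3 wild type (WT) and 5 Abhd15 knockout (KO) samples, which differed by genotype alone according to the labels. All mice were fed normal chow, for up to 14 weeks by the labels. At an age of 14 weeks they went without food overnight and then had chow for 1 hour before the liver was taken. The sources used here give neither the knockout allele nor the cells in which it acts. Abhd15 encodes an alpha/beta hydrolase studied mainly in fat cells, where it takes part in the control of lipolysis by insulin. One Mouse Gene 2.0 ST array was run per sample, and every value below is a log2 expression value, on which a difference of 1 is a doubling.

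The transcription factor p53 is stabilised by DNA damage and other stresses, and it activates genes that halt the cell cycle, repair DNA or trigger cell death. Mdm2, itself a p53 target, encodes the ubiquitin ligase that brings p53 down again. Several of the genes also answer signals other than p53: Cdkn1a, the Gadd45 genes, Btg1 and Btg2 are known to respond to hormones, growth factors, nutrient state and cytokines, and Btg2 is a classical early response gene. In liver, this group is best known from regeneration, genotoxic injury and the switch between fasting and feeding.

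Array medians lay between 2.99 and 3.05 over all clusters. The small number of arrays, 3 and 5, limits the precision. The first principal component of all clusters held 18% of the variance and set KO arrays 1 and 2 apart, at 55.2 and 50.8. KO array 3 came next at 0.22. At the other end KO arrays 4 and 5 scored -35.65 and -25.58, beyond the WT arrays at -20.84, -16.1 and -8.04. In the alternative fit with array weights, KO arrays 4 and 5 had the lowest weights, 0.756 and 0.81. KO arrays 1 and 2 had 0.981 and 0.96 there. Results are given with and without KO arrays 1 and 2, whose scores lay farthest from the others. KO arrays 4 and 5 were left out only 1 at a time. Abhd15 itself read 5.647, 5.812 and 5.460 in WT and 5.137, 5.042, 5.206, 5.175 and 5.035 in KO, each KO array below each WT array. Its log2 difference was -0.52 (SE 0.129, limma adjusted p = 0.795), and how its probes lie relative to the deleted part is unknown here. The hepatocyte markers (7 of 8 measured) averaged 11.789 to 11.860 in WT and 11.662 to 11.871 in KO, and they include albumin and transthyretin. No label says which animal each sample came from, so the p-values speak only of the spread among these samples, which may be technical. Tissue RNA was measured in bulk, so fewer cells of a type and less RNA per cell cannot be told apart.

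None of the 9 genes differed between KO and WT beyond the spread between arrays. Of the 9, 5 had a higher and 4 a lower mean in KO, the median log2 difference was 0.00, and in all 9 the groups overlapped. Over all 23521 clusters with 1 gene symbol, 49.6% were higher in the KO mean and the median log2 difference was also 0.00. With limma, 0 of the 9 passed an adjusted p of 0.05, where the share passing among all clusters was 0.0%, and 0 of the 9 had an unadjusted p under 0.05, where 6.08% of all clusters did. The groups did not overlap in 4.43% of all clusters, 1.99% higher and 2.44% lower in KO. Btg2 and Gadd45g had the widest spread of the 9, and their higher KO means came from KO arrays 1 and 2.

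**Figure D1:**
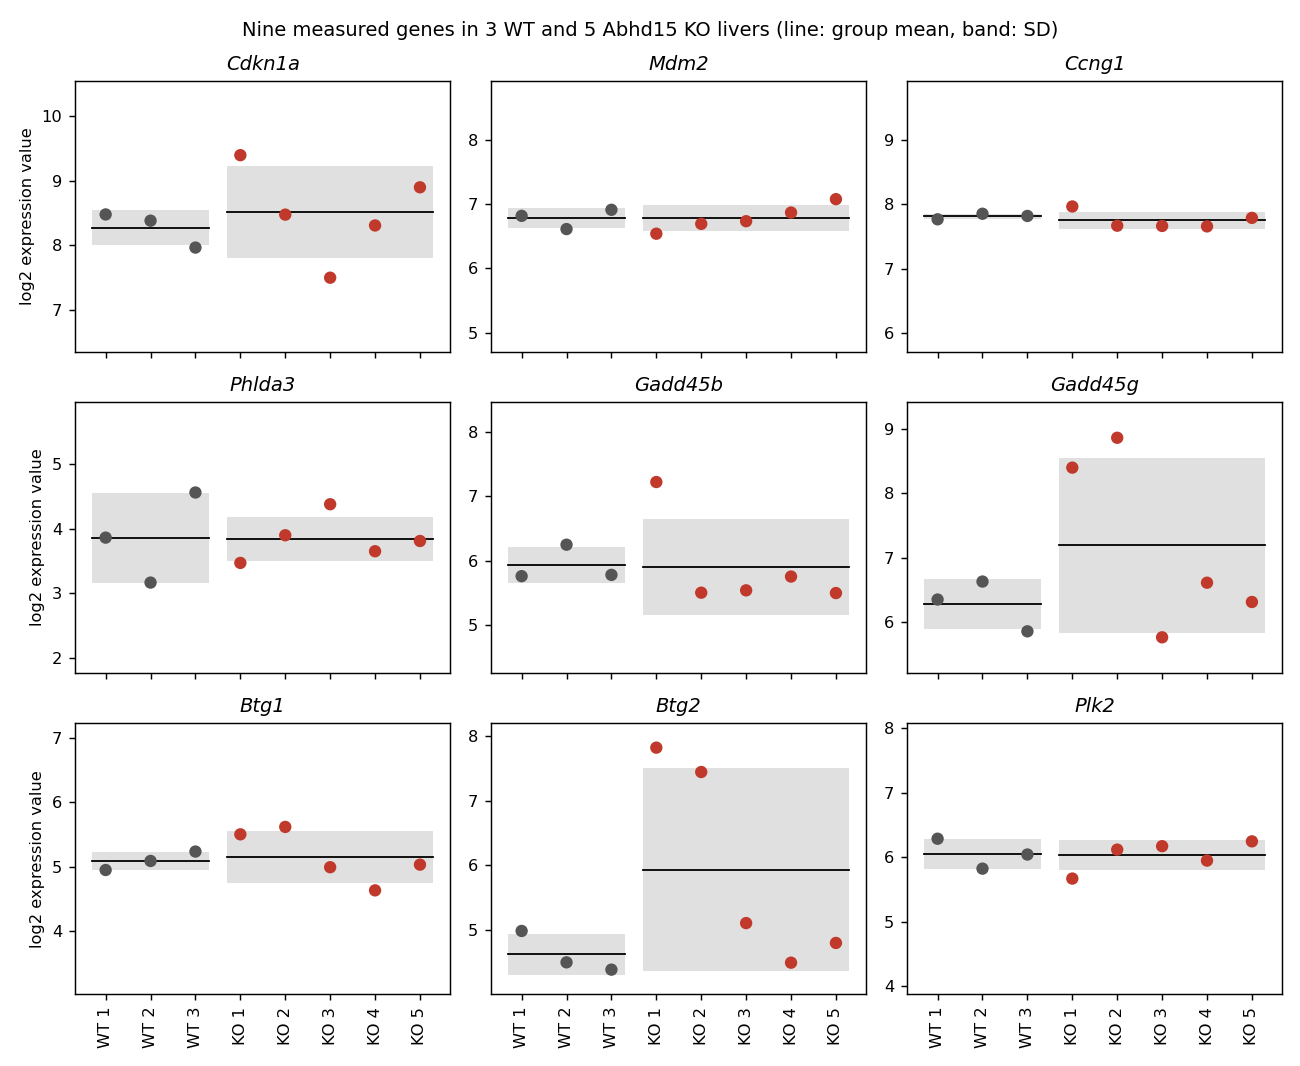
Log2 expression values of the 9 measured genes in each of the 3 WT (grey) and 5 KO (red) liver samples, with the group mean (line) and SD (band) and an equal span on each vertical axis. Btg2 and Gadd45g are high in KO arrays 1 and 2, Gadd45b in KO array 1 alone, and Mdm2, Ccng1 and Plk2 vary little.

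Mdm2, the ligase that limits p53, read 6.816, 6.611 and 6.910 in WT and 6.539, 6.692, 6.733, 6.867 and 7.075 in KO. The WT arrays lay inside the range of the KO arrays. The means were 6.78 ± 0.153 (SD, n = 3) and 6.78 ± 0.202 (SD, n = 5), with a log2 difference of 0.00 (SE 0.151, 95% interval -0.33 to 0.34, limma adjusted p = 0.999). Its partner Mdm4, which holds p53 inactive, had a log2 difference of 0.00 (SE 0.198), with a sign that turned in several settings. Trp53 itself had no cluster of its own in the annotation used.

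Cdkn1a encodes p21, the inhibitor of cyclin-dependent kinases through which p53 stops the cell cycle. It read 8.477, 8.380 and 7.963 in WT and 9.396, 8.474, 7.496, 8.306 and 8.898 in KO, so that the KO arrays held both the highest and the lowest value. KO arrays 1 and 5 lay above all WT arrays, KO array 3 lay below them, and KO arrays 2 and 4 lay among them. The means were 8.27 ± 0.273 (SD, n = 3) and 8.51 ± 0.708 (SD, n = 5), a log2 difference of 0.24 (SE 0.349, 95% interval -0.53 to 1.01). The limma adjusted p was 0.944 and the two-sided exact permutation p was 0.643, where the smallest possible is 0.0179. Without KO arrays 1 and 2 the difference was -0.04, without KO array 1 alone it was 0.02, and without KO array 3 it was 0.50. A range over the 8 arrays at least as wide as that of Cdkn1a (1.90) occurred in 1.5% of all clusters.

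Ccng1 encodes cyclin G1, a p53 target that works with protein phosphatase 2A and MDM2. It read 7.764, 7.850 and 7.816 in WT and 7.963, 7.665, 7.661, 7.654 and 7.786 in KO, with 3 KO arrays below all WT arrays and KO array 1 above them. It was the steadiest of the 9, with a range of 0.309 over the 8 arrays, and 95.5% of all clusters had a range at least as wide. The log2 difference was -0.06 (SE 0.127, 95% interval -0.34 to 0.22, limma adjusted p = 0.96).

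Phlda3, which encodes a repressor of AKT at the membrane, read 3.864, 3.167 and 4.564 in WT and 3.472, 3.901, 4.382, 3.653 and 3.812 in KO. All KO arrays lay within the WT range. Its mean of 3.85 over the 8 arrays was the dimmest of the 9, and the deposited values carry no detection call, so its presence above background is unknown. The log2 difference was -0.02 (SE 0.292, 95% interval -0.67 to 0.63). Plk2, a polo-like kinase induced by p53 and by serum, read 6.284, 5.820 and 6.039 in WT and 5.666, 6.115, 6.168, 5.945 and 6.243 in KO. Its groups overlapped almost throughout, with KO array 1 the lowest value, and the log2 difference was -0.02 (SE 0.169, 95% interval -0.39 to 0.35).

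The Gadd45 proteins are small stress sensors that bind the kinase MAP3K4, PCNA and cyclin-dependent kinase 1, and the liver forms respond to injury and to nutrient state. Gadd45g read 6.352, 6.631 and 5.859 in WT and 8.398, 8.861, 5.766, 6.613 and 6.314 in KO. KO arrays 1 and 2 lay far above every other array, while KO arrays 4 and 5 lay among the WT values and KO array 3 just below them. The means were 6.28 ± 0.391 (SD, n = 3) and 7.19 ± 1.36 (SD, n = 5), a log2 difference of 0.91 (SE 0.634, 95% interval -0.49 to 2.31), or 1.88-fold. The limma adjusted p was 0.875 and the exact permutation p was 0.357. Without KO arrays 1 and 2 the difference was -0.05 (SE 0.265). The range of 3.10 over the 8 arrays was matched or passed by 0.157% of all clusters.

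Gadd45b followed a different course on the same arrays. It read 5.760, 6.248 and 5.780 in WT and 7.220, 5.504, 5.540, 5.754 and 5.498 in KO. KO array 1 was the highest of all arrays, and the other 4 KO arrays lay below all WT arrays, KO array 4 by a small margin. In KO array 2, where Gadd45g had its highest value, Gadd45b was near its lowest. The log2 difference was -0.03 (SE 0.364, limma adjusted p = 0.995) over all arrays. Without KO array 1 it was -0.36 (adjusted p = 0.884), and without KO arrays 1 and 2 it was -0.33 (SE 0.182, adjusted p = 0.849), so it did not pass in either case.

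BTG1 and BTG2 are antiproliferative proteins that recruit the CCR4-NOT deadenylase to messenger RNA and so speed its decay. Btg2 read 4.984, 4.497 and 4.384 in WT and 7.827, 7.449, 5.106, 4.492 and 4.798 in KO. KO arrays 1 and 2 lay more than 2 log2 units above every other array, KO array 3 lay just above the WT values, and KO arrays 4 and 5 lay among them. The means were 4.62 ± 0.319 (SD, n = 3) and 5.93 ± 1.58 (SD, n = 5), a log2 difference of 1.31 (SE 0.726, 95% interval -0.29 to 2.92), or 2.48-fold. The limma adjusted p was 0.849 and the exact permutation p was 0.214. Without KO arrays 1 and 2 the difference was 0.18 (SE 0.22, adjusted p = 0.93). The range of 3.44 over the 8 arrays was the widest of the 9 genes and was matched or passed by 0.102% of all clusters.

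Btg1 read 4.948, 5.088 and 5.234 in WT and 5.501, 5.616, 4.991, 4.632 and 5.031 in KO. The same KO arrays, 1 and 2, were the highest, but by a far smaller margin than for Btg2, and KO array 4 was the lowest of all. The log2 difference was 0.06 (SE 0.217, 95% interval -0.42 to 0.55), and without KO arrays 1 and 2 it was -0.21 (SE 0.17, adjusted p = 0.892).

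**Figure D2:**
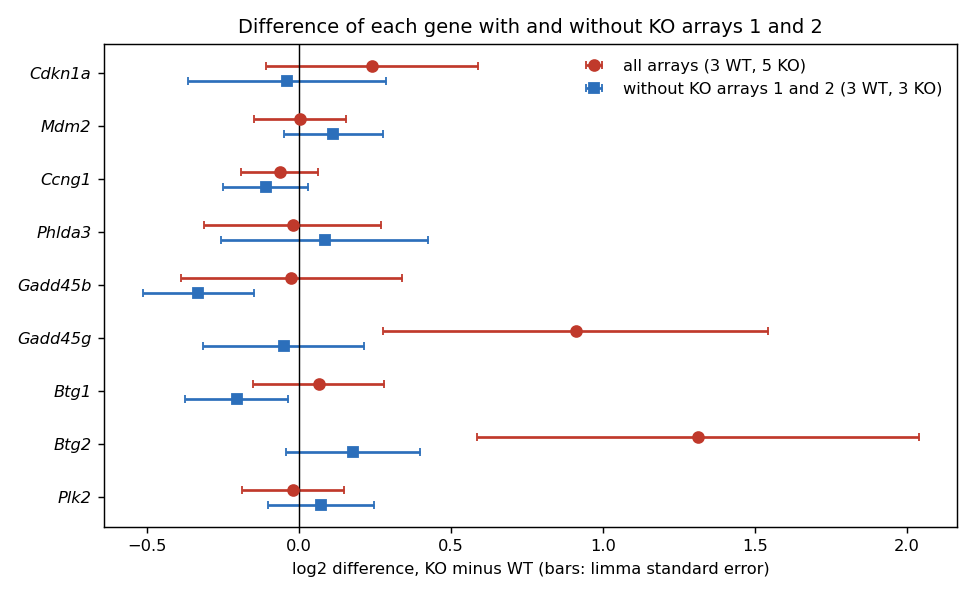
Log2 difference, KO minus WT, of each gene with limma's standard error, over all arrays (red circles, 3 WT and 5 KO) and without KO arrays 1 and 2 (blue squares, 3 WT and 3 KO). Btg2 moves from 1.31 to 0.18 and Gadd45g from 0.91 to -0.05, while Mdm2, Ccng1, Phlda3 and Plk2 stay near 0.

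Stretches before the RefSeq starts of 7 of the genes are shown because they hold the p53 motif (Cdkn1a, Mdm2, Ccng1), the cyclic AMP response element or its core (CRE; Btg2, Plk2, Btg1), or belong to the genes of widest range (Btg2, Gadd45g). Sequences are from RefSeq on GRCm38.p6, printed 5′ to 3′ on the gene's strand, and all 10 genes matched the table, with 11 start sites in all. Matches were searched on both strands within the 250 bases before each start. In Cdkn1a (chr17:29090886-29090957, plus strand, before the upstream of 2 starts that lie 2790 bases apart), Mdm2 (chr10:117710885-117710964, minus strand) and Ccng1 (chr11:40755442-40755491, minus strand), capitals mark the p53 decamer consensus. In Mdm2 capitals also mark the FoxO motif GTAAACA, which lies nearer the start.
Cdkn1a: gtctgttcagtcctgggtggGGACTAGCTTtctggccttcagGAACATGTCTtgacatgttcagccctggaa
Mdm2: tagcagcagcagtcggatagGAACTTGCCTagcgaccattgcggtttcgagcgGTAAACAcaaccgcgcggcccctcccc
Ccng1: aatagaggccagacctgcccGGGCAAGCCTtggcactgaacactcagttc

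The p53 decamer consensus is the arm of which a p53 response element has a pair. It occurred in 7.13% of the 32851 windows of this length in the table. The Cdkn1a stretch held a pair of decamers 12 bases apart, an arrangement (a gap of at most 13 bases) found in 0.0639% of all windows. Only exact matches were marked and counted. The letters that directly follow the second decamer, tgacatgttc, differ from the consensus in their first base alone and are left in lower case. Which of these arms p53 binds was not tested. Gadd45a, which has no expression value here, held 1 decamer, 40 to 31 bases before its start. Btg2, Btg1, Gadd45b, Gadd45g, Phlda3 and Plk2 had no decamer in these windows, which says nothing of sites elsewhere in those genes.

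In Btg2 (chr1:134079156-134079405, minus strand) capitals mark the CRE, TGACGTCA, and the CCAAT box, CCAAT. In Plk2 (chr13:110394962-110395009, plus strand) they mark the CRE. In Btg1 (chr10:96616777-96616922, plus strand) they mark the CRE core TGACG, read here on the other strand, and the FoxO motif, also on the other strand. In Gadd45g (chr13:51846425-51846674, plus strand) they mark the E-box CACGTG, the CCAAT box and the TATA box TATAAA.
Btg2: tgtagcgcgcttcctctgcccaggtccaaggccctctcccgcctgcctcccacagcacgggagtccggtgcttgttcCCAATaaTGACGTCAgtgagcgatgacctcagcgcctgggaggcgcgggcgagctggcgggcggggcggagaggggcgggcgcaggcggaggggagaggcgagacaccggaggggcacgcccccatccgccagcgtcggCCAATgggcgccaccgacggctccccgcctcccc
Gadd45g: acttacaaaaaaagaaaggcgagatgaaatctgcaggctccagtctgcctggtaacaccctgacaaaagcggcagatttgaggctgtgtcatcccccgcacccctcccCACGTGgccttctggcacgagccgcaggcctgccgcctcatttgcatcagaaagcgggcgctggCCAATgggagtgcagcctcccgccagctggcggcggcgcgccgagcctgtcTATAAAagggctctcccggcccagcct
Btg1: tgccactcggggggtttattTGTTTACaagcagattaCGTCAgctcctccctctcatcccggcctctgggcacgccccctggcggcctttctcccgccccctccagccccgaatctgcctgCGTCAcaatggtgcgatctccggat
Plk2: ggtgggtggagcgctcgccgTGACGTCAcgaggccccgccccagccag

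The CRE was found in 1.55% of all windows, and its core, which each CRE contains, in 17.8%. The CCAAT box was found in 33.8%, the TATA box in 12.4%, the E-box in 6.02% and the FoxO motif in 3.17%. Btg2 and Plk2 both hold the CRE letters, and over the 8 arrays Btg2 spanned 3.44 log2 units and Plk2 0.618. The part of these motifs in the values was not tested. Btg2 and Gadd45g, both high in KO arrays 1 and 2, had the CCAAT box as their only shared motif among those searched. Mdm2, Ccng1, Btg1, Gadd45a and Gadd45b had it too. The serum response factor CArG box and the AP-1 motif TGANTCA were in no window of the 10 genes, against 1.47% and 6.75% of all windows.

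**Figure D3:**
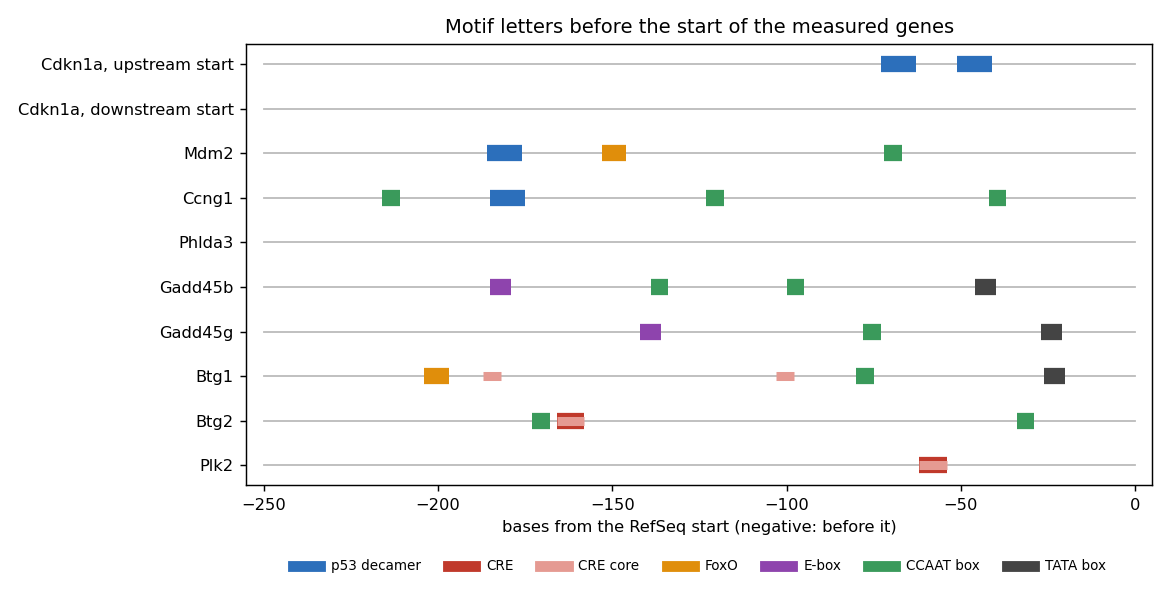
Positions of the motifs searched, as bases from the RefSeq start, for the 9 measured genes (Cdkn1a has an upstream and a downstream start, and a CRE holds the CRE core on both strands). The p53 decamer lies before Cdkn1a (upstream start), Mdm2 and Ccng1, and the CRE before Btg2 and Plk2.

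By root mean square distance between deviations from each gene's own mean over the 8 arrays, Btg2 lay nearest to Asns (0.369), Junb (0.423) and Egr1 (0.433) among 7477 genes with a mean of at least 5. Asns makes asparagine and is a target of ATF4, Junb is an AP-1 subunit and Egr1 is an early response transcription factor. Gadd45g was the fifth nearest to Btg2, at 0.538, and Btg2 itself varied by 1.29 about its mean. Gadd45g lay nearest to Mmd2 (0.353), the polo-like kinase Plk3 (0.384) and the MAP kinase phosphatase Dusp1 (0.441), and varied by 1.08 about its mean. Egr1 read 8.002 and 7.499 in KO arrays 1 and 2 and between 4.005 and 5.063 in the other 6 arrays. Dusp1 read 8.593 and 9.164 there, 6.988 to 7.331 in the other KO arrays and 6.722 to 6.854 in WT. Asns, Plk3 and Dusp1 had each KO array above each WT array, while Junb, Egr1 and Mmd2 overlapped. Without KO arrays 1 and 2 the log2 difference was 0.675 for Asns and 0.366 for Dusp1. The likeness rests on KO arrays 1 and 2, which these genes share as their highest values.

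**Figure D4:**
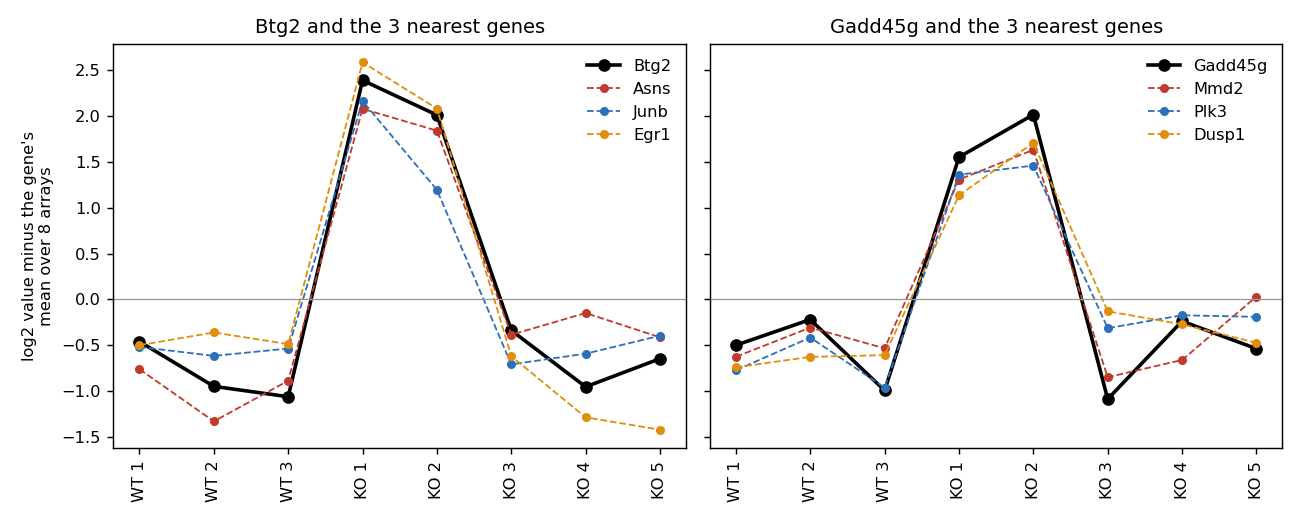
Log2 values minus each gene's mean over the 8 arrays, for Btg2 (left) and Gadd45g (right) with the 3 nearest genes by root mean square distance. In each panel the profiles peak in KO arrays 1 and 2, and the other 6 arrays lie near or below 0.

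Other p53 targets were balanced between the groups. Of 37 listed genes 33 were measured, 17 higher and 16 lower in the KO mean, with a median log2 difference of 0.00, and 0 passed limma's adjusted p of 0.05. At an unadjusted p under 0.05, 2 were higher (background 2.75%) and 1 was lower (background 3.32%). Plk3, a kinase of the polo family and an early response gene, read 6.632, 6.988 and 6.443 in WT and 8.760, 8.859, 7.090, 7.230 and 7.213 in KO. The groups were apart, with even the lowest KO array above the WT values, and KO arrays 1 and 2 lay highest. The log2 difference was 1.14 (SE 0.428, adjusted p = 0.795), and 0.49 without KO arrays 1 and 2. Perp, a desmosomal p53 target linked to cell death, read 8.195, 8.492 and 8.418 in WT and 8.090, 8.029, 8.031, 7.958 and 8.135 in KO, each KO array below each WT array (log2 difference -0.32, SE 0.125, adjusted p = 0.795). The nuclease gene Aen had a log2 difference of 0.36 (SE 0.156, adjusted p = 0.819) with overlapping groups. Proapoptotic targets on the list, among them Bbc3, Pmaip1 and Fas, were part of the count and did not pass.

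Among genes that control p53, 14 of 15 were measured, 8 higher and 6 lower, with a median log2 difference of 0.09 and 0 past the adjusted threshold. Atm, the kinase that signals DNA breaks to p53, read 5.485, 5.671 and 5.579 in WT and 5.225, 5.260, 5.049, 5.367 and 5.321 in KO, without overlap (log2 difference -0.33, SE 0.127, adjusted p = 0.795). Trp53bp1, a scaffold of break repair, and the phosphatase gene Ppm1d, a p53 target that dampens p53, had log2 differences of -0.43 (SE 0.206) and 0.34 (SE 0.171), with overlap.

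In the families of the 9 genes, 0 members passed the adjusted threshold with limma. Of 8 CDK inhibitors and cyclin G relatives, 4 were higher and 4 lower, and 1, Cdkn2c (p18), had an unadjusted p under 0.05 and was higher (background 2.75%; log2 difference 0.43, SE 0.156, at a dim mean of 3.47). Cdkn1b (p27) had a log2 difference of -0.01 (SE 0.183), Cdkn1c (p57) of -0.05 (SE 0.208), Cdkn2a of 0.29 (SE 0.158), Cdkn2b of 0.25 (SE 0.192) and Cdkn2d of -0.28 (SE 0.151). Ccng2, cyclin G2 and a FoxO target, and Ccni, cyclin I, had log2 differences of 0.30 (SE 0.354) and -0.01 (SE 0.116). Ccng2 was highest in KO arrays 1 and 2, at 5.919 and 5.718, and its difference was -0.06 without them.

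All 6 of the PLK and PHLDA relatives had a higher KO mean (median log2 difference 0.23), where 49.6% of all clusters did, and also without KO arrays 1 and 2 (median 0.24). Of the 6, Plk3 alone had an unadjusted p under 0.05, where 2.75% of all clusters were higher at that level. Phlda1, an early response gene, had a log2 difference of 0.44 (SE 0.265). It read 9.410 in KO array 2 and 7.945 in KO array 5, against 8.005 to 8.198 in WT. Plk1, Plk4, Plk5 and Phlda2 had log2 differences of 0.02, 0.12, 0.34 and 0.05 with means over the 8 arrays of at most 3.08, too dim to be sure of a signal. The BTG relatives Tob1 and Tob2 had log2 differences of 0.31 (SE 0.235) and 0.49 (SE 0.21, adjusted p = 0.816), and both were highest in KO array 2, at 9.521 and 6.074. In KO array 5 Tob1 read 8.325, below all WT arrays. Without KO arrays 1 and 2 the differences of Tob1 and Tob2 were 0.038 and 0.285. Btg4, an oocyte gene, was dim at a mean of 2.09. With the CCR4-NOT subunits, 8 of 11 genes of that list were measured, 2 higher and 6 lower, and Tob2 alone had an unadjusted p under 0.05 (background 2.75% higher). Of 9 measured GADD45 partners, 4 were higher and 5 lower. Map2k6, a kinase of the p38 pathway, had a log2 difference of 0.67 (SE 0.393), Map2k4 of 0.13 (SE 0.134) and Pcna of 0.08 (SE 0.127).

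The immediate early genes, the FoxO and insulin-repressed genes and the glucocorticoid response genes averaged higher in KO arrays 1 and 2 than in any other array. The other p53 targets did so by a smaller margin. The proliferation genes and the hepatocyte markers were all but level with the highest other array. The proliferation genes averaged 3.541 and 3.528 in KO arrays 1 and 2, against 3.516 in KO array 5. The hepatocyte markers averaged 11.869 and 11.871 there, against 11.860 in WT array 2. The immediate early genes (24 measured) averaged 6.216 and 6.315 in KO arrays 1 and 2, against 5.104 to 5.305 in KO arrays 3 to 5 and 5.022 to 5.186 in WT. The FoxO and insulin-repressed genes (16 measured) averaged 7.375 and 7.469 in KO arrays 1 and 2, 6.726 to 6.754 in the other KO arrays and 6.482 to 6.791 in WT. The glucocorticoid response genes (14 measured) averaged 7.692 and 7.244 in KO arrays 1 and 2, 6.855 to 7.120 in the other KO arrays and 6.690 to 6.943 in WT. The other p53 targets averaged 5.330 and 5.320 in KO arrays 1 and 2, 5.080 to 5.258 in the other KO arrays and 5.193 to 5.203 in WT. The part of these lists in the values of Btg2 and Gadd45g was not tested. Of the 24 immediate early genes, 22 were higher and 2 lower in the KO mean, against 49.6% higher over all clusters, with a median log2 difference of 0.46. At an unadjusted p under 0.05, 5 were higher (background 2.75%), and 3 were higher without overlap (background 1.99%). Without KO arrays 1 and 2, 16 were higher and 8 lower, with a median of 0.13. In this list, Klf4, Atf3 and Jun had log2 differences of 0.45 (SE 0.168), 0.85 (SE 0.32) and 0.79 (SE 0.317), and 0 of 24 passed the adjusted threshold. Of the 16 FoxO and insulin-repressed genes, 14 were higher and 2 lower, with a median of 0.29. Of these, 1, Igfbp1, had an unadjusted p under 0.05 and was higher (background 2.75%). Without KO arrays 1 and 2, 11 were higher and 5 lower, with a median of 0.09. In this list, Igfbp1, Cited2 and Foxo1 had log2 differences of 2.83 (SE 0.985), -0.77 (SE 0.374) and 0.27 (SE 0.137), and 0 of 16 passed. Without KO arrays 1 and 2 these differences were 1.35, -0.34 and 0.26. Igfbp1 read 10.257 and 9.562 in KO arrays 1 and 2, 5.656 to 6.884 in the other KO arrays and 4.353 to 5.781 in WT.

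**Figure D5:**
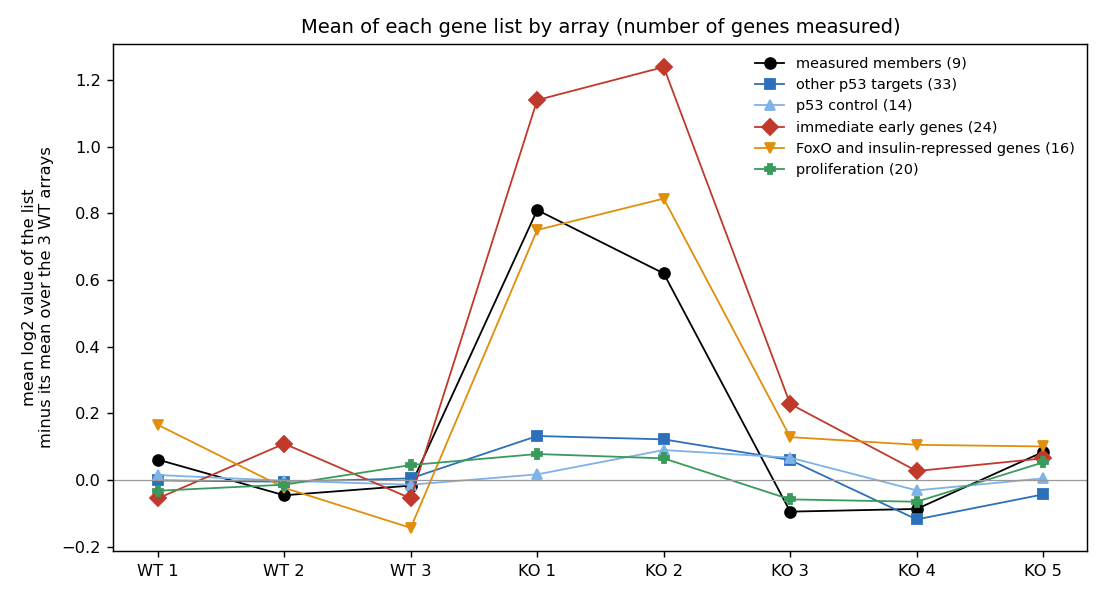
Mean log2 value of each gene list in each array, minus the list's mean over the 3 WT arrays, with the number of genes measured in the legend. The immediate early genes and the FoxO and insulin-repressed genes are highest in KO arrays 1 and 2, as is the mean of the 9 measured genes, while the other p53 targets, p53 control and proliferation lists stay closer to 0. Of the 9, Btg2, Gadd45g and, by a smaller margin, Btg1 were highest in both of these arrays. Cdkn1a, Gadd45b and Ccng1 were highest in KO array 1, and Mdm2, Phlda3 and Plk2 in neither. The glucocorticoid response list, also highest in those arrays, is not drawn.

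Markers of other liver cells were set beside these values. The 8 Kupffer cell and macrophage markers, 6 higher and 2 lower in the KO mean, averaged 5.808 to 6.248 in WT and 6.660, 6.394, 6.782, 5.577 and 5.966 in KO arrays 1 to 5, with the highest value in KO array 3. Neutrophil markers (5 of 5 measured) averaged 2.229 to 2.340 in WT and 2.214 to 2.659 in KO, and those of sinusoidal endothelium (7 of 7) averaged 7.425 to 7.471 and 7.403 to 7.527. Stellate cell markers (7 of 7) averaged 6.347 to 6.446 in WT and 6.207 to 6.479 in KO, cholangiocyte markers (4 of 5) 3.930 to 4.145 and 3.915 to 4.166, B cell markers (3 of 4) 2.427 to 3.021 and 2.383 to 2.875, and T and NK cell markers (5 of 5) 2.733 to 3.146 and 3.024 to 3.078. None of the 4 erythroid markers had a cluster of its own. The part of these cells in the values of the 9 genes was not tested.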

How the data were processed

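Liver RNA of 3 WT and 5 KO samples was hybridised to 1 array each, and the titles gave group and replicate number. The authors deposited log2 expression values for 41345 clusters (0.409 to 13.3). The submitters' processing notes name RMA and oligo, and the design text names Expression Console. Versions, settings and genome build: not given in the sources used here. The log2 scale was inferred from the range, and the background correction could not be changed. RMA as commonly run compresses differences of dim clusters. Names came from the platform annotation, in which 23521 clusters have 1 symbol, 1814 several and 16010 none here. Of the first, 23328 matched RefSeq.

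KO minus WT was fitted over all 23521 clusters with limma 3.58.1 in R 4.3.3 (lmFit, eBayes, no covariates, 6 residual degrees of freedom), with two-sided p-values adjusted by Benjamini-Hochberg over all of them and a threshold of 0.05. The fit was tested on simulated data. Of several clusters of a gene, the one of highest mean was kept. Exact permutation tests ran over the 56 ways to take 3 of 8 arrays. The 10 pathway lists and 9 marker lists hold 208 genes, of which 190 were measured. The genes named are the 9 measured members, all measured CDK inhibitor, BTG/TOB, PLK and PHLDA relatives, Mdm4, the 3 smallest p-values of each other pathway list, Abhd15, and the 3 genes nearest to the 2 members of widest range. Other genes are named only as list examples. The members and lists were chosen with earlier results of these data known. The replicate numbers are shared by the groups without a stated pairing. No batch is given in the labels. Alternatives were eBayes with trend and robust settings, a filter on dim clusters, all clusters, other scalings, the mean of a gene's clusters, array weights, a replicate block, and leaving out arrays.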

Additional observations from a re-analysis of the deposited data

Results flagged for a closer look

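Among the 5 KO arrays, the gap between the most extreme array and the next was compared with the range of the group, against Dixon's critical value of 0.71 for 5 samples. Of the 53 genes named here 2 passed it, and chance alone gives about 1 in 20 groups. Gadd45b stood out through KO array 1, at 7.22 (ratio 0.851), with the other KO arrays between 5.498 and 5.754. Cdkn1c stood out through KO array 4, at 2.69 (ratio 0.725), a dim level. Btg2 and Gadd45g were not picked by this measure, because KO arrays 1 and 2 were high together.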

How the results depend on the processing

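No member passed the adjusted threshold in any setting. The adjusted p lay between 0.594 and 0.978 for Btg2 and between 0.608 and 0.991 for Gadd45g over all alternatives. Of the 53 named genes, 35 kept their direction in every alternative. Over all 53 genes, 67 of 883 values changed sign, all of them in the remaining genes and mostly at differences near 0. Count of clusters past the threshold: 0 as reported (1429 at an unadjusted p under 0.05), 3 with trend and robust settings, 1 with a mean of at least 5, 3 over all clusters and 1 with the replicate block. Leaving out 1 array gave 0 to 0, with 5 to 7 members higher. Quantile normalization made 8 of the 9 members higher, where the median shift of all clusters was 0.01.

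Signs turned without KO arrays 1 and 2 for Cdkn1a (-0.04), Gadd45g (-0.05), Btg1 (-0.21), Plk2 (0.071), Phlda3 (0.084), Ccng2 (-0.06), Mdm4 (0.055), Junb (-0.009), Egr1 (-0.66) and Mmd2 (-0.004). They turned under quantile normalization for Plk2 (0.025), Gadd45b (0.028), Phlda3 (0.009), Mdm4 (0.028) and Cdkn1b (0.053), with median centring for Mdm4 (0.00), and with array weights for Mdm2 (-0.013), Phlda3 (0.014), Mdm4 (0.014), Cdkn1b (0.021) and Plk1 (-0.04). Leaving out 1 array at a time gave Btg2 0.84 to 1.67, Gadd45g 0.49 to 1.27, Cdkn1a 0.02 to 0.50, Mdm2 -0.082 to 0.068, Phlda3 -0.37 to 0.33, Gadd45b -0.36 to 0.13, Btg1 -0.051 to 0.20, Plk2 -0.13 to 0.10, Mdm4 -0.26 to 0.16, Cdkn1b -0.11 to 0.10, Cdkn1c -0.24 to 0.11, Ccni -0.052 to 0.014, Pcna -0.013 to 0.13, Plk1 -0.11 to 0.15 and Phlda2 -0.12 to 0.22. The cause of these changes was not tested.

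WT and KO share the replicate numbers 1 to 3, but deviations of same-numbered arrays correlated at -0.05, 0.02 and 0.02. So few values cannot settle whether these arrays share more than a number. KO arrays 4 and 5 have no WT array of their number, so the replicate block takes the difference from arrays 1 to 3 of each group alone. KO arrays 1 and 2 thus weigh more in it than in the main fit. With this block the difference was 2.17 for Btg2 and 1.39 for Gadd45g, and signs turned for Mdm2 (-0.12), Phlda3 (0.053), Gadd45b (0.16), Mdm4 (0.002), Cdkn1b (0.18), Cdkn1c (0.11), Ccni (0.026), Plk1 (-0.23) and Phlda2 (-0.23). Not every array correlated best with its own number.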

Other observations

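Of 14 measured glucocorticoid response genes, 0 passed limma's adjusted threshold. Of these, 11 were higher and 3 lower in the KO mean, with a median log2 difference of 0.22, and 5 had an unadjusted p under 0.05, all higher, where 2.75% of all clusters were. Without KO arrays 1 and 2, 8 were higher and 6 lower, with a median of 0.13. In that setting 3 had an unadjusted p under 0.05 in either direction, as did 1407 of all 23521 clusters. Cebpb, a transcription factor of the acute response, read 6.435, 6.726 and 6.589 in WT and 7.786, 7.530, 6.948, 6.909 and 6.844 in KO, each KO array above each WT array (log2 difference 0.62, SE 0.226, and 0.32 without KO arrays 1 and 2). The metallothionein gene Mt2 and the clock gene Per1 had log2 differences of 0.85 (SE 0.244) and 0.65 (SE 0.201), and of 0.66 and 0.52 without those arrays.

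Proliferation genes, which p21 and the BTG proteins restrain, were balanced, with 10 of 20 measured genes higher and 10 lower and a median log2 difference of 0.00, and 0 passed the adjusted threshold. Mki67, a marker of cycling cells, read 2.968, 3.433 and 3.141 in WT and 4.088, 3.622, 3.437, 3.658 and 3.746 in KO, without overlap but at a dim level (log2 difference 0.53, SE 0.172, adjusted p = 0.795). Ccnb2 and Mcm4 had log2 differences of 0.56 (SE 0.27) and -0.44 (SE 0.232), with overlap.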
